A study of Mus musculus with 72 samples.

Results

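Liver of 129S2 mice was set against liver of C57BL/6J mice on the first day after birth (P1), which takes 6 of the 72 arrays of the series. The 3 arrays of each strain were chosen by their labelled strain, stage and tissue, so no measured value entered the choice. Each array carried RNA of whole liver from male pups, untreated, that were bred from purchased parents. The 129S2 parents came from Charles River in France and the C57BL/6J parents from The Jackson Laboratory. E14.5 and P1 animals had been sexed by a molecular assay. The series also holds DBA/2J mice, the stages E14.5, P7 and P90 (11 to 14 weeks) and whole brain, with 3 arrays in each of 24 groups of strain, stage and tissue. The labels do not say whether the 3 arrays of a group came from different litters or pooled pups, so each p-value measures the spread between these samples. The labelled tissue was borne out by the hepatocyte markers, such as albumin (Alb), which read 14.87, 14.88 and 14.82 log2 units in 129S2 livers, against 14.80, 14.82 and 14.83 in C57BL/6J livers.

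At birth the mouse liver is still a blood-forming organ, and red cell precursors, macrophages and lymphoid precursors share it with hepatocytes. Over the following days blood formation moves to bone marrow and spleen, and hepatocytes switch on the enzymes of drug, steroid and nitrogen metabolism one gene cluster at a time. Inbred strains differ at many loci by single bases, by copy number and by inserted elements, and gene families of detoxification and of innate immunity are among the most variable. In RNA of a whole organ, fewer cells of a type and less RNA per cell cannot be told apart.

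Values are log2 signals of the authors' RMA processing, in which 1 unit is a doubling, and a difference is always 129S2 minus C57BL/6J, given with its standard error. The array medians lay between 6.60 and 6.65. Over the genes tested, pairs of 129S2 arrays correlated at 0.978 to 0.987, pairs of C57BL/6J arrays at 0.974 to 0.987 and pairs of different strain at 0.961 to 0.975. The first C57BL/6J array stood apart most: 195 genes lay more than 1 log2 unit from the mean of the other two arrays of its strain, against 101 and 52 for the second and the third C57BL/6J array and 53, 51 and 32 for the 129S2 arrays. Y-linked genes were high and Xist low on all 6 arrays, as in males. The lowest Eif2s3y signal was 9.56 in 129S2 and 9.53 in C57BL/6J, and the highest Xist signal was 6.87 in 129S2 and 6.64 in C57BL/6J. Exactly equal values occurred between arrays of the same stage and tissue and not across such sets, so each set of 9 arrays was taken as normalized apart from the rest.

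Of 12370 genes tested, 359 (2.9%) differed by 1.5-fold or more between the strains with an adjusted p (limma, Benjamini-Hochberg) below 0.05, and these are the genes called. In 129S2, 156 genes (1.26%) were higher and 203 (1.64%) were lower. At least 2-fold differences made up 155 of the calls, 70 higher and 85 lower, and at least 4-fold differences 29, with 13 higher and 16 lower. The median difference over all genes tested was -0.0094. The 3 arrays of 129S2 lay apart from the 3 of C57BL/6J, with no overlap, for all 359 called genes and for 2456 (19.9%) of all genes tested. For 83 of the 359, the lower of the strain means lay at or under the level a gene had to exceed in at least 1 of the 3 strains to be tested (6.62), where signal is near background and the size of a fold is uncertain. A second probe set above the same level existed for 107 of the called genes and was called the same way for 33 (30.8%) and the opposite way for 2. The probes follow a reference sequence, and the effect of strain differences within them was not tested. The spread behind each p was taken from all 9 P1 liver arrays, those of DBA/2J among them. With only the 6 arrays compared in the fit, 246 genes were called. Of the 94 called genes named in this report, 24 then lost their call. Without the third 129S2 array the count was 209, and with all 36 liver arrays in the fit it was 569.

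**Figure D1:**
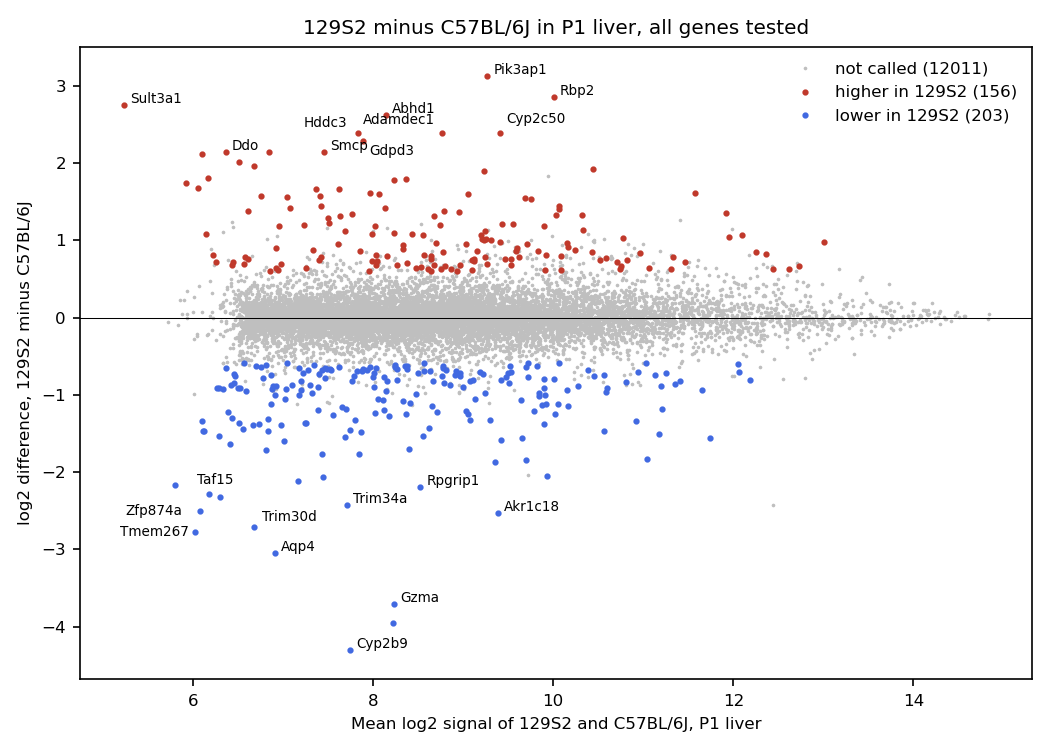
Difference between 129S2 and C57BL/6J in P1 liver (vertical axis, log2 units) against the mean log2 signal of both strains (horizontal axis), 1 point per gene. The 156 genes called higher in 129S2 are red, the 203 called lower are blue, the rest grey, and names mark the 10 highest and 10 lowest named genes, from Pik3ap1 at 3.13 to Cyp2b9 at -4.31.

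The gene furthest below C57BL/6J in 129S2 was Cyp2b9, a steroid- and drug-oxidising cytochrome P450 on chromosome 7, and its neighbours fell with it. Cyp2b9 read 5.77, 5.45 and 5.56 log2 units in 129S2 livers, against 9.84, 10.05 and 9.80 in C57BL/6J livers. The strains were 19.8-fold apart, and the 129S2 arrays were all below the level of 6.62, so the fold is not exact (-4.31 ± 0.13, adjusted p = 7.24e-07). Among genes measured and placed on the reference assembly, Cyp2b13, Cyp2b9, Cyp2a12 and Cyp2f2 are consecutive on chromosome 7 and were all called lower, the one run of at least 3 neighbouring genes called in the same direction. Cyp2f2, which oxidises naphthalene and marks hepatocytes near the portal vein, read 8.93, 8.61 and 9.19 log2 units in 129S2 livers, against 10.88, 10.82 and 11.15 in C57BL/6J livers (-2.05 ± 0.18, adjusted p = 0.000306). Cyp2a12, a testosterone hydroxylase, read 10.66, 10.63 and 10.96 log2 units in 129S2 livers, against 11.36, 11.93 and 11.64 in C57BL/6J livers (-0.89 ± 0.15, adjusted p = 0.0109). Both genes stayed well above background in 129S2, with no overlap between strains. Cyp2b13 read 6.45, 6.46 and 6.31 log2 units in 129S2 livers, against 7.25, 7.48 and 7.48 in C57BL/6J livers (-0.9997 ± 0.16, adjusted p = 0.0086), with all 129S2 arrays below 6.62. Genes of the Cyp2b subfamily are close copies of each other, and how far their probes read each other's transcripts was not tested. All 4 calls held whichever array was left out.

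Cytochrome P450s that handle drugs and steroids changed in both directions. Of 30 tested of the 37 listed, 3 were higher and 6 lower (30% called, against 2.9% of all genes), with a median difference of -0.10 against -0.0094 for all genes. The chromosome 7 run is part of these calls. This list and those below were chosen with earlier results of these data known, so their shares are no independent finding. The lower calls numbered 6 whichever array was left out, and Cyp2b9, Cyp2b13, Cyp2a12, Cyp2f2 and Cyp2c37 were called each time, while the higher calls numbered 2, 2 and 3 without 129S2 replicates 1, 2 and 3, and 3, 2 and 2 without C57BL/6J replicates 1, 2 and 3. Cyp2c50 and Cyp2c37 lie in the Cyp2c cluster of chromosome 19, whose enzymes oxidise arachidonic acid, and went opposite ways. Cyp2c50 read 10.88, 9.87 and 11.07 log2 units in 129S2 livers, against 8.12, 8.09 and 8.45 in C57BL/6J livers, 5.23-fold higher (2.39 ± 0.29, adjusted p = 0.00191). Cyp2c37 read 10.22, 9.31 and 10.86 log2 units in 129S2 livers, against 12.03, 12.06 and 11.79 in C57BL/6J livers, 3.56-fold lower (-1.83 ± 0.31, adjusted p = 0.0119). The 129S2 arrays did not overlap the C57BL/6J arrays for either gene, and the second 129S2 array had the lowest 129S2 value of both. With only the 6 arrays compared in the fit, Cyp2c37 was not called (adjusted p = 0.0514). Cyp1a2, an enzyme of hepatocytes near the central vein that dioxin-like compounds induce, read 10.36, 10.29 and 9.83 log2 units in 129S2 livers, against 8.33, 9.12 and 9.39 in C57BL/6J livers (1.21 ± 0.25, adjusted p = 0.0284). Its neighbour Cyp1a1 (1.23 ± 0.22, adjusted p = 0.0163) and Cyp3a16 (-0.96 ± 0.14, adjusted p = 0.00523), named after their values were seen, were the other two called members. The call was lost for Cyp1a2 without 129S2 replicates 1 and 2 or C57BL/6J replicate 2 (adjusted p up to 0.0927). Cyp2e1 and Cyp3a11, which clear ethanol and many drugs, were not called, with differences of 0.18 and -0.10.

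Other enzymes of detoxification and steroid breakdown also differed. Of 49 conjugating and other detoxification enzymes tested of 58 listed, 2 were higher and 3 lower (10.2% called), with a median difference of -0.24. The higher members were Tpmt and Ugt3a2, and the lower ones Ces1g, Ces2e and Ces1e, while Sult3a1 and Akr1c18, described with them, are not on the list. Sult3a1, an amine sulfotransferase, read 5.90, 6.26 and 7.66 log2 units in 129S2 livers, against 4.13, 3.63 and 3.81 in C57BL/6J livers (2.75 ± 0.39, adjusted p = 0.00478). The strains did not overlap, but both means were below 6.62, and the gene was tested because DBA/2J livers averaged 8.68 ± 0.29 (SD, n = 3). Tpmt, which methylates thiopurines, read 10.54, 10.48 and 10.54 log2 units in 129S2 livers, against 8.97, 9.19 and 8.82 in C57BL/6J livers (1.53 ± 0.10, adjusted p = 5.82e-05). That difference was 1.53 with the probe set used and 0.52, no longer called, with the mean of all probe sets of the gene. Ces1g, a carboxylesterase of lipid and drug esters, read 5.96, 6.16 and 6.21 log2 units in 129S2 livers, against 7.67, 8.52 and 8.49 in C57BL/6J livers (-2.12 ± 0.21, adjusted p = 0.000583). Akr1c18, the dehydrogenase that inactivates progesterone, read 8.34, 7.95 and 8.06 log2 units in 129S2 livers, against 9.73, 10.88 and 11.33 in C57BL/6J livers (-2.53 ± 0.35, adjusted p = 0.00415). For both genes the 129S2 arrays lay more than 1 log2 unit below the lowest C57BL/6J array. Ugt3a2, a glycosyltransferase, was higher (0.96 ± 0.14, adjusted p = 0.00583). Ces2e, another carboxylesterase, was lower (-0.92 ± 0.22, adjusted p = 0.0485), with the call lost for Ces2e without 129S2 replicates 1, 2 and 3 or C57BL/6J replicates 2 and 3 (adjusted p up to 0.144). Ces1e, a neighbour of Ces1g named after its value was seen, differed by -0.92 ± 0.18, adjusted p = 0.0231. The lower detoxification calls numbered 1, 2 and 1 without 129S2 replicates 1, 2 and 3, and 4, 4 and 4 without C57BL/6J replicates 1, 2 and 3.

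**Figure D2:**
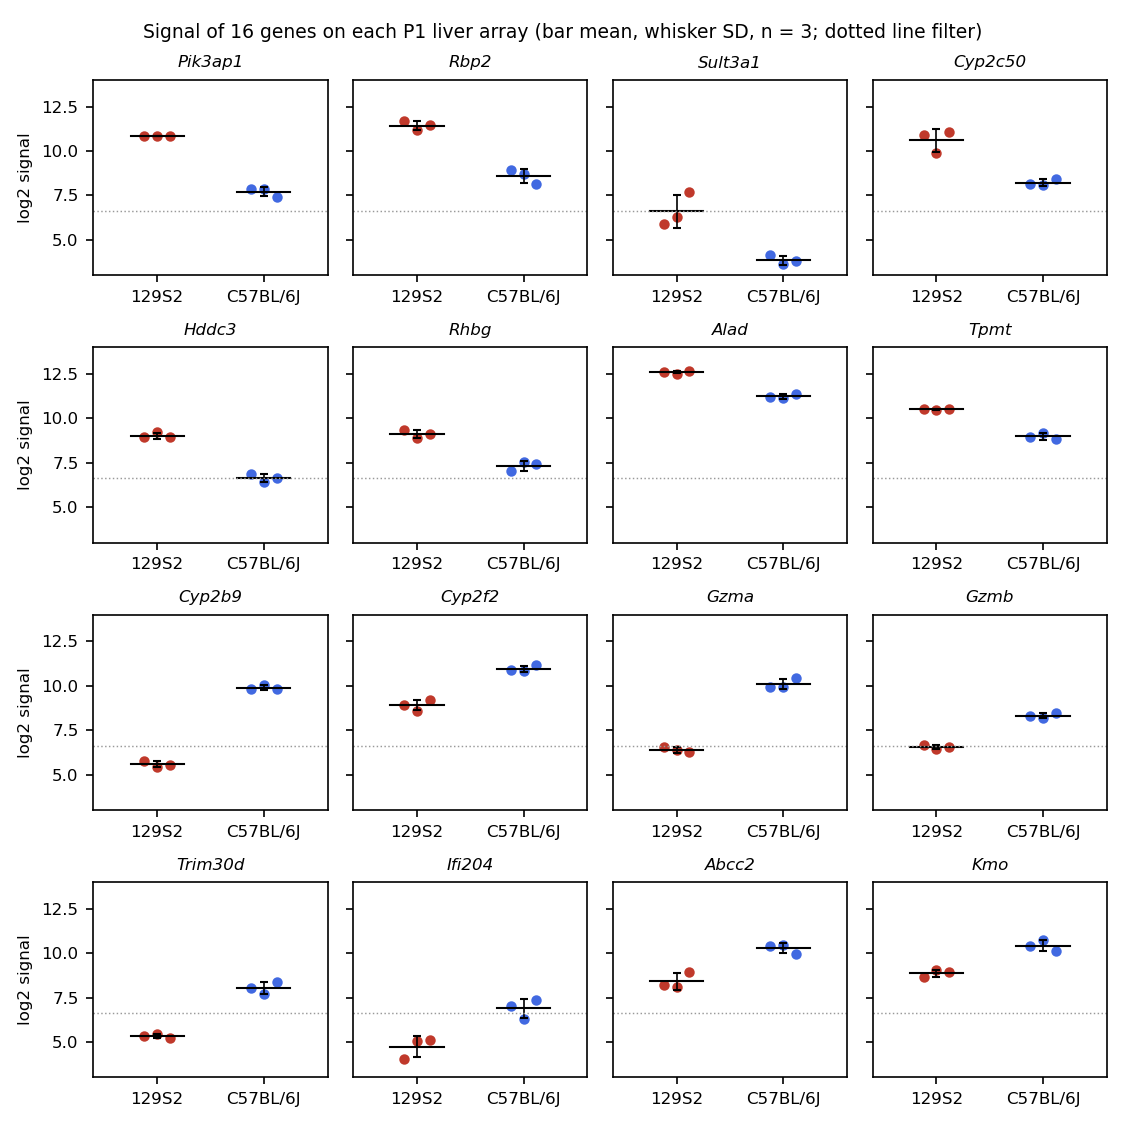
Log2 signal of 16 genes on each P1 liver array, 129S2 in red and C57BL/6J in blue, with the mean (bar) and SD (whisker) of 3 arrays and the level of 6.62 that a strain mean had to exceed as a dotted line. The strains do not overlap for any of the 16 genes.

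Genes of nitrogen handling and of bile showed single large changes in groups that otherwise stayed close. Rhbg, an ammonium transporter of hepatocytes near the central vein, read 9.36, 8.89 and 9.10 log2 units in 129S2 livers, against 7.03, 7.56 and 7.44 in C57BL/6J livers, 3.42-fold higher (1.77 ± 0.16, adjusted p = 0.000341). Glul, glutamine synthetase of the same hepatocytes, read 12.71, 12.78 and 12.77 log2 units in 129S2 livers, against 12.29, 12.01 and 12.10 in C57BL/6J livers (0.62 ± 0.11, adjusted p = 0.0116). Of the 10 markers of the central zone tested, 3 were higher (Rhbg, Cyp1a2 and Glul) and 0 lower, with a median difference of 0.30. Of the 7 tested markers of the portal zone (10 listed), 1 was higher (Pigr) and 1 lower (Cyp2f2), with a median of -0.21. The call of Pigr was lost whichever array was left out, so 0 portal markers were then higher. The higher central markers numbered 2, 2 and 2 without 129S2 replicates 1, 2 and 3, and 3, 1 and 3 without C57BL/6J replicates 1, 2 and 3. Kmo, the hydroxylase of the kynurenine branch of tryptophan breakdown, read 8.65, 9.04 and 8.92 log2 units in 129S2 livers, against 10.41, 10.73 and 10.14 in C57BL/6J livers, 2.94-fold lower (-1.56 ± 0.16, adjusted p = 0.00072). Gpt2, an alanine aminotransferase, was lower too (-0.84 ± 0.16, adjusted p = 0.0179), and of 30 genes of amino acid breakdown and the urea cycle tested (35 listed) these 2 were lower and Glul was higher. The calls were lost for Glul without 129S2 replicate 3 or C57BL/6J replicate 2 (adjusted p up to 0.0569) and for Gpt2 without 129S2 replicates 1 and 3 or C57BL/6J replicate 2 (adjusted p up to 0.083).

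Abcc2, the exporter of conjugated bilirubin into bile, read 8.19, 8.10 and 8.96 log2 units in 129S2 livers, against 10.42, 10.45 and 9.97 in C57BL/6J livers (-1.86 ± 0.23, adjusted p = 0.00225). Amacr, a racemase of the bile acid side chain, read 10.87, 10.35 and 10.64 log2 units in 129S2 livers, against 11.79, 11.81 and 11.79 in C57BL/6J livers (-1.18 ± 0.16, adjusted p = 0.00407). These were the 2 called members, both lower, of 23 tested genes of bile acid synthesis and transport (25 listed), whose median was 0.04, and both calls held whichever array was left out. Of 20 cholesterol synthesis and uptake genes tested (24 listed), 2 were higher, Tm7sf2 (0.84 ± 0.13, adjusted p = 0.00848) and Hsd17b7 (0.79 ± 0.18, adjusted p = 0.0479), and 0 lower, while 18 of the 20 differences were positive, with a median of 0.45. Lists of other functions, given below, leaned to one side as well. On the first C57BL/6J array 2 genes of the list that were not called, chosen after their values were seen, were low: Idi1, an isomerase of the pathway, read 11.07, 11.29 and 11.46 log2 units in 129S2 livers, against 8.51, 11.51 and 11.38 in C57BL/6J livers, and Sqle, squalene epoxidase, 10.86, 10.68 and 10.91 log2 units in 129S2 livers, against 8.69, 10.85 and 10.62 in C57BL/6J livers. Cyp51, Msmo1, Fdps, Hmgcs1, Insig1, Fdft1, Nsdhl, Mvd and Stard4, further uncalled members of the list, were low on that array too. Their gaps to the mean of the other C57BL/6J arrays ran from -2.88 for Cyp51 to -1.19 for Stard4. For Idi1 and Sqle the other C57BL/6J arrays lay near the 129S2 values. Of the called genes, Tm7sf2 read 10.95, 10.76 and 10.83 log2 units in 129S2 livers, against 9.82, 9.87 and 10.32 in C57BL/6J livers. Hsd17b7 read 10.61, 10.47 and 10.37 log2 units in 129S2 livers, against 9.35, 9.94 and 9.80 in C57BL/6J livers. The strains did not overlap for either gene, but both were lowest on the first C57BL/6J array. Without that array Hsd17b7 differed by 0.62 (adjusted p = 0.0921). The call of Hsd17b7 was lost whichever array was left out, and the part of the first C57BL/6J array in the median was not tested.

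The genes highest in 129S2 were of mixed function. Pik3ap1, an adaptor of phosphoinositide 3-kinase known from B cells, read 10.82, 10.83 and 10.84 log2 units in 129S2 livers, against 7.85, 7.86 and 7.40 in C57BL/6J livers, 8.74-fold higher (3.13 ± 0.12, adjusted p = 1.77e-06). Its second probe set differed by -0.11, so the difference holds for 1 of its 2 probe sets. Rbp2, the retinol carrier of intestinal cells, read 11.68, 11.16 and 11.45 log2 units in 129S2 livers, against 8.92, 8.68 and 8.15 in C57BL/6J livers (2.85 ± 0.30, adjusted p = 0.000856). Abhd1, a hydrolase-fold protein, read 9.69, 9.27 and 9.39 log2 units in 129S2 livers, against 7.00, 6.76 and 6.73 in C57BL/6J livers (2.62 ± 0.12, adjusted p = 6.7e-06). Adamdec1, a secreted metalloprotease known from gut macrophages, read 9.75, 10.44 and 9.68 log2 units in 129S2 livers, against 7.57, 7.35 and 7.79 in C57BL/6J livers (2.39 ± 0.19, adjusted p = 0.000161). In all 4 the lowest 129S2 array was more than 1 log2 unit above the highest C57BL/6J array.

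Hddc3, a pyrophosphohydrolase of nucleotides, read 8.94, 9.21 and 8.93 log2 units in 129S2 livers, against 6.84, 6.42 and 6.66 in C57BL/6J livers (2.39 ± 0.12, adjusted p = 9.11e-06). Gdpd3, a lysophospholipase-type phosphodiesterase, read 8.64, 9.40 and 9.04 log2 units in 129S2 livers, against 6.83, 6.59 and 6.81 in C57BL/6J livers (2.29 ± 0.17, adjusted p = 0.000117). Both were near 6.62 in C57BL/6J and clear of it in 129S2. With the mean of all probe sets the difference of Hddc3 was 1.10, still called. Ddo, which oxidises D-aspartate, differed by 2.14 ± 0.15, adjusted p = 7.71e-05, and its second probe set was called higher as well, by 1.19. Cd209g, a C-type lectin of the DC-SIGN family, differed by 2.14 ± 0.18, adjusted p = 0.000192, and its neighbour Cd209f on chromosome 8, named after its value was seen, by 1.08 ± 0.12, adjusted p = 0.00134. Smcp, a protein of sperm mitochondria, differed by 2.14 ± 0.24, adjusted p = 0.0012. Rcan2, an inhibitor of calcineurin, differed by 2.11 ± 0.34, adjusted p = 0.00865 and Ccnb1ip1, a ubiquitin ligase of meiotic crossing over, by 2.01 ± 0.25, adjusted p = 0.00249. The C57BL/6J means of Ddo, Cd209g, Smcp, Rcan2 and Ccnb1ip1 lay below 6.62. Cyp4a12a, a fatty acid hydroxylase that is male-predominant in adult liver, read 7.86, 7.74 and 7.89 log2 units in 129S2 livers, against 6.26, 5.81 and 6.73 in C57BL/6J livers (1.56 ± 0.20, adjusted p = 0.00249), the 1 called member of 28 tested genes of fatty acid oxidation.

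Several genes lay near or below 6.62 in 129S2 and clearly measured in C57BL/6J. Aqp4, a water channel, read 5.38, 5.30 and 5.48 log2 units in 129S2 livers, against 8.24, 9.01 and 8.05 in C57BL/6J livers (-3.05 ± 0.21, adjusted p = 7.71e-05), while its second probe set differed by -0.08. Tmem267, a membrane protein gene on chromosome 13, read 4.72, 4.69 and 4.50 log2 units in 129S2 livers, against 7.49, 7.34 and 7.39 in C57BL/6J livers (-2.77 ± 0.11, adjusted p = 1.77e-06). Zfp874a, a zinc finger gene also on chromosome 13, read 4.93, 4.93 and 4.62 log2 units in 129S2 livers, against 7.70, 6.92 and 7.36 in C57BL/6J livers (-2.50 ± 0.18, adjusted p = 8.39e-05). The 129S2 arrays of these 3 genes all lay below 6.62, so the folds are not exact. Taf15, an RNA-binding protein tied to general transcription, differed by -2.29 ± 0.21, adjusted p = 0.000342, and Mid1, a microtubule-bound ubiquitin ligase, by -2.06 ± 0.23, adjusted p = 0.00111. Rpgrip1, a protein of the photoreceptor cilium, read 7.10, 7.78 and 7.40 log2 units in 129S2 livers, against 9.70, 9.39 and 9.78 in C57BL/6J livers (-2.20 ± 0.17, adjusted p = 0.000141), above 6.62 in both strains.

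At loci with known structural or coding variants among laboratory strains, 4 of 21 tested genes (43 listed) were higher and 4 lower (38.1% called), with a median of 0.09. The list was chosen for such variants, so its share is no independent finding. Alad, the second enzyme of haem synthesis, whose copy number varies among strains, read 12.63, 12.52 and 12.65 log2 units in 129S2 livers, against 11.22, 11.13 and 11.38 in C57BL/6J livers (1.36 ± 0.10, adjusted p = 0.000117), and its second probe set was called higher by 1.32. Its neighbour on chromosome 4, the phosphatase gene Hdhd3, differed by 1.09 ± 0.22, adjusted p = 0.0284. Glo1, the glyoxalase that removes methylglyoxal, read 12.58, 12.48 and 12.36 log2 units in 129S2 livers, against 11.34, 11.40 and 11.55 in C57BL/6J livers (1.04 ± 0.11, adjusted p = 0.000772), and all 3 of its other probe sets were called higher. Defb1, an antimicrobial peptide, read 9.01, 9.71 and 9.45 log2 units in 129S2 livers, against 10.86, 10.48 and 10.58 in C57BL/6J livers (-1.25 ± 0.26, adjusted p = 0.0308). Ifi202b, Cd5l and Klrd1, given with their families and cell types, and Naip5, a sensor of bacterial flagellin (-0.89 ± 0.14, adjusted p = 0.00733, named after its value was seen), were the other called members. Alad and Glo1 kept their calls whichever array was left out, while the call was lost for Hdhd3 without 129S2 replicates 1, 2 and 3 or C57BL/6J replicate 3 (adjusted p up to 0.0966) and for Defb1 without 129S2 replicates 1 and 3 or C57BL/6J replicates 1, 2 and 3 (adjusted p up to 0.105).

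Interferon-inducible genes differed in both directions. Of 34 tested interferon-stimulated genes (39 listed), 1 was higher, the apoptosis regulator Xaf1, and 2 were lower, Oasl2 and Ifit3 (8.82% called), with a median of -0.17. Of the Ifi200 family of DNA sensors, 5 of 12 listed members were tested, with Ifi202b higher and Ifi204 and Ifi209 lower. Of 14 tested Trim restriction factors and guanylate-binding GTPases (27 listed), Gbp2b was higher and Trim30d and Trim34a lower. These 9 called genes were looked up in the RefSeq promoter table, which held 8 of them, all but Ifi204, as 250 bases before and 50 after the gene start on GRCm38.p6. The motif searched was GAAANNGAAA, the core of the element that interferon-activated factors bind, on either strand. It occurred in 4 of the 8 promoters, against 381 of 12757 promoters of genes tested here (2.99%) and 1131 of all 32851 (3.44%). The 8 genes came from lists of interferon-inducible genes. As uncalled members of those lists were not counted apart, these shares do not relate the strain difference to the motif. The 4 promoters that hold it are shown because their genes lay on both sides of the comparison, with motif letters in capitals (TTTCNNTTTC where it lies on the other strand). The positions are chr3:142594597-142594896 on the plus strand for Gbp2b, chr7:104244207-104244506 on the plus strand for Trim34a, chr7:104507800-104508099 on the minus strand for Trim30d and chr19:34583279-34583578 on the plus strand for Ifit3.
Gbp2b: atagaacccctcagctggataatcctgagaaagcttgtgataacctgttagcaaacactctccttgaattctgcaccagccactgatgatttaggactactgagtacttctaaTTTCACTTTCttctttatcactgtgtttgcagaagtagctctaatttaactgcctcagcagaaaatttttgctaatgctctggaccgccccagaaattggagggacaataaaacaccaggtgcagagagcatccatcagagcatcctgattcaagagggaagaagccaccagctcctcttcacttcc
Trim34a: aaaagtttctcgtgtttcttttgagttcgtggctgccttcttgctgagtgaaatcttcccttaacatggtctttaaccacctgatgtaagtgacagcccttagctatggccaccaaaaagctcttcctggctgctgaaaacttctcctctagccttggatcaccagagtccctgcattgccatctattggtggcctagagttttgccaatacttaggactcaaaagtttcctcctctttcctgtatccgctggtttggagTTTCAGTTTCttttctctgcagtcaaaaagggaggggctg
Trim30d: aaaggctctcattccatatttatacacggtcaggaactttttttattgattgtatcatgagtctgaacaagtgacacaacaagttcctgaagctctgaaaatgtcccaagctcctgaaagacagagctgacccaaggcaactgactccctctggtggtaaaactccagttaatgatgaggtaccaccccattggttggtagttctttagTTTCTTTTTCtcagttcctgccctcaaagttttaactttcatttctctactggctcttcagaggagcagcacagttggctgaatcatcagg
Ifit3: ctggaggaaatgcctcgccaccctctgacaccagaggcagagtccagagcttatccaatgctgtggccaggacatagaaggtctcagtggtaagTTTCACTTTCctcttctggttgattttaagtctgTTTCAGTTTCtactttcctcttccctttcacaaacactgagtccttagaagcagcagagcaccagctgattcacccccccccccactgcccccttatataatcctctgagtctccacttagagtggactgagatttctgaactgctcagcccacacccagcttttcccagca
Counted in bases from the gene start, the motif began at -137 in Gbp2b, at -41 in Trim30d and at 10 in Trim34a, and it lay at 2 places before the start of Ifit3. A match describes the reference sequence and shows neither binding nor the 129S2 sequence.

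Gbp2b, which has its motif in that window, read 7.72, 7.66 and 7.26 log2 units in 129S2 livers, against 5.72, 6.23 and 5.97 in C57BL/6J livers (1.57 ± 0.15, adjusted p = 0.000511). Trim34a read 6.45, 6.58 and 6.45 log2 units in 129S2 livers, against 8.97, 8.79 and 8.99 in C57BL/6J livers (-2.43 ± 0.10, adjusted p = 1.77e-06), and Trim30d, on the same chromosome 7, read 5.34, 5.42 and 5.19 log2 units in 129S2 livers, against 8.05, 7.69 and 8.35 in C57BL/6J livers (-2.71 ± 0.17, adjusted p = 3.51e-05). With the mean of all probe sets the difference of Trim30d was -1.54, still called. Both Trim genes, which belong to a cluster of virus-restricting ubiquitin ligases, were below 6.62 on all 129S2 arrays. Trim30a of that cluster missed the threshold, at -1.09 ± 0.31, adjusted p = 0.0937. Ifi204 read 4.04, 5.02 and 5.10 log2 units in 129S2 livers, against 7.00, 6.31 and 7.35 in C57BL/6J livers (-2.16 ± 0.31, adjusted p = 0.00539), and Ifi209, its neighbour on chromosome 1, differed by -1.46 ± 0.32, adjusted p = 0.0362. Ifi202b, which lies on the same chromosome and lacks the motif in its window, read 6.52, 7.00 and 6.86 log2 units in 129S2 livers, against 4.97, 5.13 and 5.05 in C57BL/6J livers (1.74 ± 0.13, adjusted p = 0.000117). Oasl2, an oligoadenylate synthetase-like protein, read 5.98, 5.58 and 5.94 log2 units in 129S2 livers, against 7.72, 6.70 and 7.40 in C57BL/6J livers (-1.44 ± 0.26, adjusted p = 0.0177), and Ifit3, an inhibitor of viral translation, differed by -0.79 ± 0.18, adjusted p = 0.0443. Xaf1 read 8.15, 8.19 and 8.23 log2 units in 129S2 livers, against 6.58, 6.71 and 6.56 in C57BL/6J livers (1.57 ± 0.09, adjusted p = 2.6e-05), but its other probe set differed by -1.63 and the mean of both by -0.027, so its direction depends on the probe set. The Ifi200, Trim and class I histocompatibility families hold close copies, and how far probes read a related transcript was not tested. The call was lost for Ifi209 without 129S2 replicates 1 and 3 or C57BL/6J replicates 1 and 3 (adjusted p up to 0.125), for Oasl2 without 129S2 replicates 2 and 3 or C57BL/6J replicate 3 (adjusted p up to 0.0637) and for Ifit3 without 129S2 replicates 1, 2 and 3 or C57BL/6J replicates 2 and 3 (adjusted p up to 0.158).

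**Figure D3:**
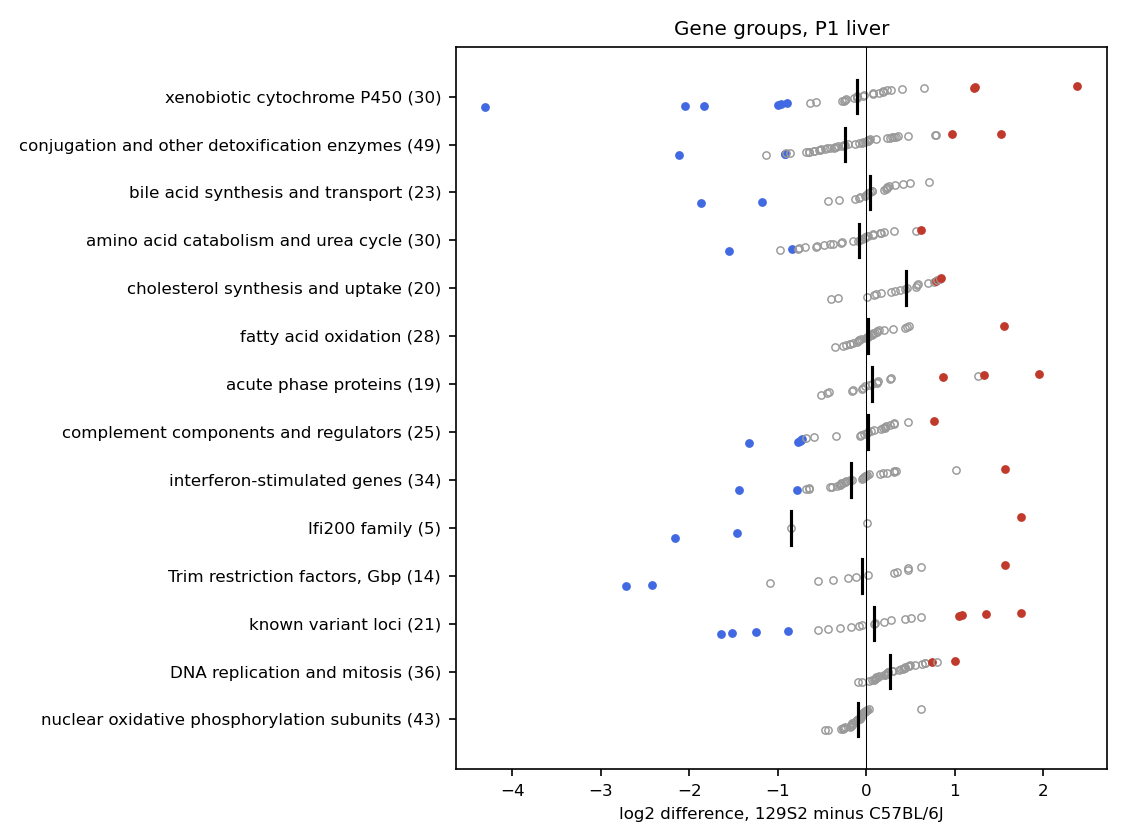
Difference between 129S2 and C57BL/6J (horizontal axis, log2 units) for the tested members of 14 gene groups, with the number tested in brackets and the median as a black bar. Filled red points are genes called higher in 129S2 and filled blue points genes called lower. In the P450, detoxification, amino acid, complement, interferon-stimulated, Ifi200, Trim and variant groups called genes lie on both sides of 0. The higher interferon-stimulated gene is Xaf1, whose direction depends on the probe set.

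Genes of cytotoxic lymphocytes held the largest difference among the cell type markers. Gzma, the granule protease granzyme A, read 6.53, 6.37 and 6.25 log2 units in 129S2 livers, against 9.93, 9.93 and 10.42 in C57BL/6J livers, 13.1-fold lower (-3.71 ± 0.18, adjusted p = 7.53e-06). Gzmb, granzyme B, read 6.65, 6.45 and 6.55 log2 units in 129S2 livers, against 8.27, 8.21 and 8.46 in C57BL/6J livers (-1.76 ± 0.10, adjusted p = 2.35e-05), and Klrd1, the receptor chain CD94 of natural killer cells, 5.61, 5.63 and 5.53 log2 units in 129S2 livers, against 7.22, 7.14 and 7.33 in C57BL/6J livers (-1.64 ± 0.09, adjusted p = 2.14e-05). The 129S2 means of these 3 genes lay below 6.62, so the folds are not exact, and every 129S2 array lay more than 1.5 log2 units below every C57BL/6J array. Ccl5, a chemokine of T and natural killer cells, was lower as well (-0.87 ± 0.13, adjusted p = 0.00527). These were the 4 called of 9 tested markers of T and natural killer cells (14 listed, 44.4% called), and all 4 were called whichever array was left out. The T cell markers Cd3e and Cd4 were not called, with differences of 0.07 and 0.12, and the median of the 9 was -0.02. The summed signal of the list was 10.28 to 10.38 in 129S2 and 11.30 to 11.57 in C57BL/6J on the log2 scale. Linear signals are summed, so Gzma weighs heavily in it, and 4 of the 9 differences were positive. Each such sum, here and below, includes the called genes of its list and is no separate measure.

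B lineage markers were lower in 129S2: 5 of 9 tested (12 listed) were called lower and 0 higher (55.6% called), and all 9 differences were negative, with a median of -0.65. Cd79b, a signalling chain of the B cell receptor, read 7.75, 7.87 and 7.62 log2 units in 129S2 livers, against 9.12, 8.70 and 9.16 in C57BL/6J livers (-1.25 ± 0.13, adjusted p = 0.000792). Ms4a1, the surface protein CD20, read 7.25, 7.78 and 7.69 log2 units in 129S2 livers, against 8.61, 8.89 and 8.43 in C57BL/6J livers (-1.07 ± 0.16, adjusted p = 0.00596), and its second probe set was called lower too, by -2.07. For both genes, which kept their calls whichever array was left out, the strains were separate. Cd79a differed by -1.19 ± 0.23, adjusted p = 0.0203, the recombinase gene Rag1 by -1.36 ± 0.32, adjusted p = 0.0479 and Vpreb3, a chaperone of the pre-B cell receptor, by -0.65 ± 0.13, adjusted p = 0.025. The lower calls numbered 3, 3 and 2 without 129S2 replicates 1, 2 and 3, and 4, 6 and 3 without C57BL/6J replicates 1, 2 and 3, and the summed signal was 10.67 to 10.88 in 129S2 and 11.39 to 11.77 in C57BL/6J.

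Markers of Kupffer cells, the resident macrophages of liver, were lower: 6 of 16 were called lower and 0 higher (37.5% called), with a median of -0.48. Cd5l, a protein these macrophages secrete, read 10.80, 10.31 and 10.14 log2 units in 129S2 livers, against 12.36, 11.60 and 11.83 in C57BL/6J livers (-1.51 ± 0.21, adjusted p = 0.00415), and Vsig4, their complement receptor, 9.36, 9.33 and 8.96 log2 units in 129S2 livers, against 10.91, 10.37 and 10.48 in C57BL/6J livers (-1.37 ± 0.16, adjusted p = 0.00159). The 129S2 arrays of both genes lay below all C57BL/6J arrays, and both calls held whichever array was left out. C1qa and C1qc, chains of the first complement component, differed by -0.74 ± 0.16, adjusted p = 0.0305 and by -0.75 ± 0.16, adjusted p = 0.0317. Clec4f (-0.62) and Marco (-0.59), named after their values were seen, were the other called members. Slc40a1, the iron exporter, and Csf1r, the receptor of their growth factor, were not called, with differences of -0.03 and -0.40. Of the 16 differences 2 were positive, the highest at 0.63. Cd163 of the list, named after its values were seen, was among the members not called. It read 7.28 to 8.16 log2 units in 129S2 livers, against 7.73, 6.96 and 6.28 in C57BL/6J livers. The lower calls numbered 6, 5 and 2 without 129S2 replicates 1, 2 and 3, and 4, 6 and 2 without C57BL/6J replicates 1, 2 and 3, and the summed signal was 14.16 to 14.39 in 129S2 and 14.63 to 14.95 in C57BL/6J. Of 14 endothelial markers, Clec4g (-0.97 ± 0.11, adjusted p = 0.00134), a lectin of sinusoids, and Bmp2 (-0.95 ± 0.22, adjusted p = 0.0447), a signal for iron control, were lower and 0 higher. With the mean of all probe sets Clec4g differed by -0.56 and was not called, and the call of Bmp2 was lost whichever array was left out. The summed endothelial signal was 13.03 to 13.23 in 129S2 and 13.40 to 13.85 in C57BL/6J.

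Erythroid markers leaned the other way. Of 16 tested (22 listed), all had positive differences, with a median of 0.83, but 2 were called higher: Car1, a carbonic anhydrase of red cells (0.96 ± 0.12, adjusted p = 0.00187), and Gata1, the factor that directs red cell formation (0.86 ± 0.18, adjusted p = 0.0291). The second C57BL/6J array was the lowest of its strain for most of them. Slc4a1, the anion exchanger of red cells, read 12.75, 13.28 and 13.14 log2 units in 129S2 livers, against 12.64, 11.72 and 12.70 in C57BL/6J livers and was not called (0.71 ± 0.27, adjusted p = 0.228). The higher calls numbered 1, 1 and 1 without 129S2 replicates 1, 2 and 3, and 6, 1 and 2 without C57BL/6J replicates 1, 2 and 3, and 9 with all 36 liver arrays in the fit. The summed signal was 15.37 to 15.82 in 129S2 and 14.35 to 15.23 in C57BL/6J. Hbb-b2, an adult beta globin, read 10.75, 11.98 and 11.48 log2 units in 129S2 livers, against 9.93, 8.60 and 9.94 in C57BL/6J livers (1.91 ± 0.43, adjusted p = 0.0393), while its other probe set differed by -0.14. The difference thus holds for 1 of its 2 probe sets, and how far they read other globin transcripts was not tested. The call was lost for Hbb-b2 without 129S2 replicates 2 and 3 or C57BL/6J replicates 2 and 3 (adjusted p up to 0.14). Of 36 genes of DNA replication and mitosis tested (38 listed), 34 had positive differences, with a median of 0.27, and 2 were called higher, the replication-licensing genes Cdc6 (1.00 ± 0.18, adjusted p = 0.0177) and Mcm2 (0.74 ± 0.15, adjusted p = 0.0292). The replication and mitosis calls numbered 0, 1 and 0 without 129S2 replicates 1, 2 and 3, and 1, 0 and 4 without C57BL/6J replicates 1, 2 and 3. The part of the erythroid signal given above in the replication genes was not tested.

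**Figure D4:**
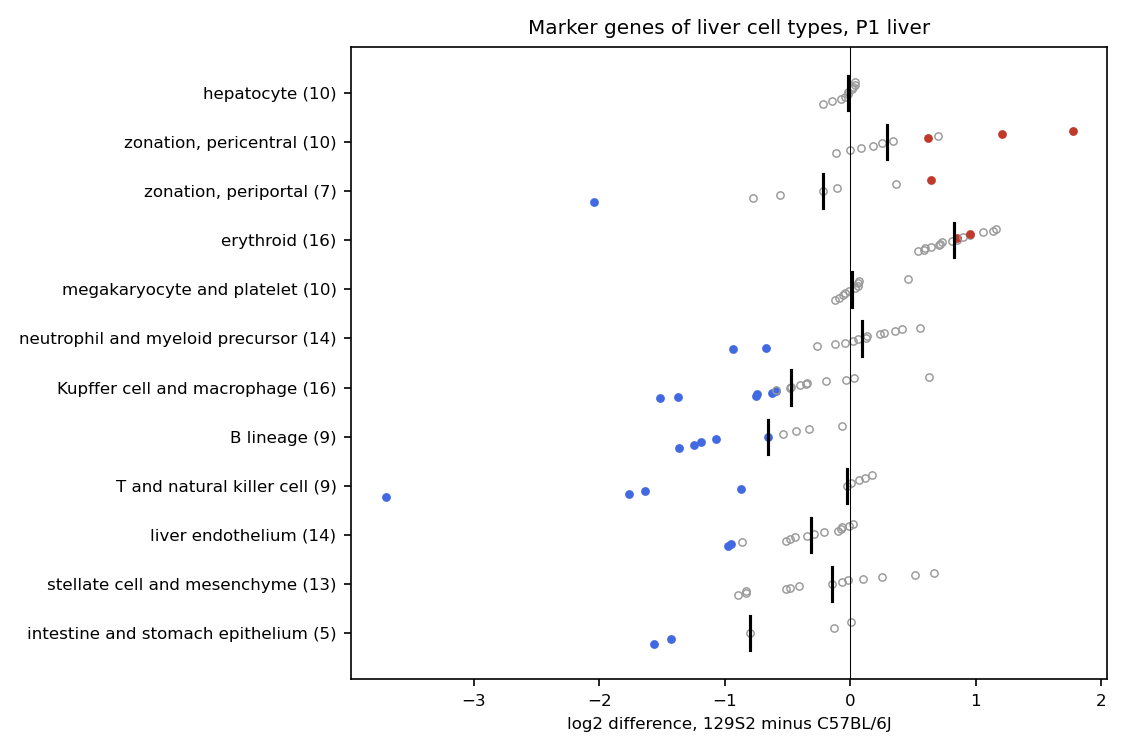
Difference between 129S2 and C57BL/6J (horizontal axis, log2 units) for tested marker genes of 12 cell types or liver zones, with the number tested in brackets and the median as a black bar. Filled points are called genes: all called T and natural killer cell, B lineage and Kupffer cell markers lie below 0, and the 16 erythroid markers all lie above it.

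Hepatocyte markers were close: 0 of 10 tested were called, and their differences ran from -0.21 to 0.04. The summed signal of the hepatocyte list was 17.46 to 17.53 in 129S2 and 17.47 to 17.57 in C57BL/6J. Markers of neighbouring organs were also read. Of 5 tested markers of intestine and stomach (10 listed), Tff3, a mucosal trefoil peptide (-1.56 ± 0.29, adjusted p = 0.0175), and Lgals4, a gut galectin (-1.43 ± 0.23, adjusted p = 0.00874), were lower, while Tff1 differed by 0.01. The lower calls numbered 1, 2 and 1 without 129S2 replicates 1, 2 and 3, and 3, 2 and 2 without C57BL/6J replicates 1, 2 and 3, and the summed signal was 12.01 to 12.32 in 129S2 and 13.15 to 13.26 in C57BL/6J. Of 15 pancreatic, 12 muscle and 8 adipocyte markers, 5, 5 and 2 were tested and 0 were called, with medians between -0.03 and 0.02. The part of other tissue in the calls was not tested.

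Acute phase and complement genes had medians near 0, while 15.8% and 24% of them were called, against 2.9% of all genes. As for the P450 list, these shares are no independent finding. Of 19 tested acute phase proteins (23 listed), 3 were higher and 0 lower, with a median of 0.07. Orm1, orosomucoid, read 8.08, 8.27 and 6.61 log2 units in 129S2 livers, against 5.77, 5.77 and 5.55 in C57BL/6J livers (1.96 ± 0.36, adjusted p = 0.0175), A2m, a protease inhibitor, 10.28, 11.21 and 11.46 log2 units in 129S2 livers, against 9.59, 9.36 and 10.02 in C57BL/6J livers (1.33 ± 0.28, adjusted p = 0.03), and Saa3, a serum amyloid, differed by 0.86 ± 0.19, adjusted p = 0.0339. The call was lost for Orm1 without 129S2 replicate 1 or C57BL/6J replicate 3 (adjusted p up to 0.0592), for A2m without 129S2 replicates 2 and 3 or C57BL/6J replicates 1 and 2 (adjusted p up to 0.114) and for Saa3 without 129S2 replicates 2 and 3 or C57BL/6J replicate 2 (adjusted p up to 0.114). Orm1, A2m and Saa3 also lost their calls with all 36 liver arrays in the fit (adjusted p 0.0518, 0.0592 and 0.16). The same held with only the 6 arrays compared (adjusted p 0.0654, 0.0952 and 0.091). Of 25 complement genes tested (32 listed), C8b, a chain of the membrane attack complex, was higher (0.77 ± 0.11, adjusted p = 0.00602) and 5 were lower, among them the complement inhibitor Cd59a (-1.32 ± 0.15, adjusted p = 0.00111), the attack complex component C6 (-0.77 ± 0.16, adjusted p = 0.0276), and C1qa and C1qc, which are also on the Kupffer cell list. Cfp, properdin, named after its value was seen, was the remaining one (-0.72 ± 0.15, adjusted p = 0.0313). With the mean of all probe sets Cd59a differed by -0.76, still called. The lower complement calls numbered 4, 2 and 1 without 129S2 replicates 1, 2 and 3, and 1, 4 and 1 without C57BL/6J replicates 1, 2 and 3. Serpina11, a secreted serpin, was higher (1.07 ± 0.19, adjusted p = 0.0161), as was the apolipoprotein Apon (1.03 ± 0.16, adjusted p = 0.00874), and Pltp, which transfers phospholipid between lipoproteins, was lower (-0.79 ± 0.10, adjusted p = 0.00302). The call was lost for Serpina11 without 129S2 replicates 1 and 3 (adjusted p up to 0.0681). Of 24 coagulation genes, 14 of gluconeogenesis and glycogen, 10 of ketogenesis and fasting, 20 of fatty acid synthesis, 43 subunits of oxidative phosphorylation, 23 heat shock proteins, 18 clock genes and 25 growth axis genes tested, 0 were called. Leaving out 1 array gave 4 higher growth axis genes without the first C57BL/6J array, and at most 1 call in each of the other lists named in that sentence. Fbp1, a gluconeogenic phosphatase, Fgb, a fibrinogen chain, and Igfbp1, a binding protein of insulin-like growth factors, differed by 0.19, -0.04 and 0.08. Rps6, a ribosomal protein, was the 1 of 26 ribosomal genes called, lower (-0.90 ± 0.12, adjusted p = 0.00317). Lists with few or no calls could still lean to one side. Differences were positive for 22 of the 25 growth axis genes, 4 of the 43 oxidative phosphorylation subunits and 1 of the 26 ribosomal genes. Such a lean is thus not particular to the cholesterol, erythroid and replication lists.

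Further lists held 1 to 3 called genes or none. Of 22 antigen presentation genes tested (33 listed, 13.6% called), H2-Q2 (1.68 ± 0.28, adjusted p = 0.0104) and H2-T24 (0.68 ± 0.16, adjusted p = 0.0454), class I genes, were higher and Nlrc5, the activator of class I transcription (-0.66 ± 0.13, adjusted p = 0.0284), was lower. Of 24 haem and iron genes (8.33% called), Alad and Blvrb, a biliverdin reductase (0.78 ± 0.17, adjusted p = 0.0311), were higher and 0 lower. Foxa2, a liver-specifying factor (0.67 ± 0.12, adjusted p = 0.0139), was the 1 of 29 transcription factors called (3.45%, near the 2.9% of all genes). Of 14 neutrophil markers (14.3% called), Chil3, a chitinase-like protein (-0.93 ± 0.22, adjusted p = 0.0459), and Itgb2l, an integrin chain (-0.67 ± 0.11, adjusted p = 0.0123), were lower and 0 higher, with a median of 0.09. Herpud1, of protein quality control in the endoplasmic reticulum (-0.70 ± 0.16, adjusted p = 0.0425), and Klf2, a factor of endothelium (-0.62 ± 0.12, adjusted p = 0.0216), were the lower calls of 21 endoplasmic reticulum stress genes (4.76% called) and 22 immediate early genes (4.55% called). The call of Herpud1 was lost whichever array was left out, and those of H2-T24, Nlrc5, Blvrb, Foxa2, Chil3, Itgb2l and Klf2 without at least 1 array. With the mean of all probe sets Itgb2l differed by -0.28 and was not called. Of 7 major urinary and male-predominant genes tested (21 listed, 28.6% called), Cyp4a12a was higher and C6 lower. Of 10 megakaryocyte, 13 stellate cell, 5 mast cell and 3 biliary markers tested, 0 were called.

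The same strain difference was then measured at the other stages, in other animals, with the P1 probe sets. Of the 359 P1 genes, 143 (39.8%) were called the same way in E14.5 liver, 168 (46.8%) in P7 liver and 147 (40.9%) in P90 liver. These make up 29.2% of 490 calls at E14.5, 28.0% of 601 at P7 and 14.9% of 987 at P90, stages at which 3.96%, 4.86% and 7.98% of the same 12370 genes were called. The opposite direction was called for 1, 5 and 9 P1 genes. In all 3 other liver stages 75 of the 359 were called the same way, in 2 of them 68, in 1 of them 97 and in none 119. In P1 brain 52 were called the same way and 2 the opposite way, out of 115 calls there (0.93% of genes). The labels do not say whether brain and liver with the same number share an animal.

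Hddc3 was called higher in all 5 sets, by 2.39 in P1 liver, by 2.25 at E14.5, 2.43 at P7 and 2.59 at P90 in liver, and by 2.35 in P1 brain. Tmem267, Taf15, Zfp874a, Trim34a and Rpgrip1 were called lower in all 5 sets. Pik3ap1, Abhd1, Gdpd3, Abcc2, Trim30d and Ifi204 were called the same way at all 4 liver stages and not called in P1 brain. For Pik3ap1 the difference was 3.13 at P1, 1.89 at E14.5, 2.67 at P7 and 4.07 at P90 in liver, against 0.26 in P1 brain.

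For other genes the P1 difference stood apart from the mean difference of the other stages. A contrast of the P1 difference with the mean of the differences at E14.5, P7 and P90 was called for 436 of 12370 genes (3.52%), of which 121 were P1 calls (33.7% of the 359). Rbp2 differed by 2.85 at P1 and by 0.35 at E14.5, -0.09 at P7 and -0.04 at P90 (contrast 2.77, adjusted p = 3.68e-08). Sult3a1 differed by 2.75 at P1 and by 0.00 at E14.5, 0.17 at P7 and 0.16 at P90 (contrast 2.64, adjusted p = 1.43e-06). Smcp showed the same pattern, with 2.14 at P1 and -0.04 at E14.5, -0.18 at P7 and 0.00 at P90 (contrast 2.22, adjusted p = 3.24e-08). Cyp2c50 differed by 2.39 at P1, and by 0.05 at E14.5, -1.04 at P7 and 0.03 at P90, so its direction at P7, where it was called, was the opposite (contrast 2.71, adjusted p = 3.24e-08). H2-Q2, a class I histocompatibility gene, was also called lower at P7, with 1.68 at P1 and 0.69 at E14.5, -1.73 at P7 and -0.22 at P90 (contrast 2.10, adjusted p = 2.08e-05). Rhbg differed by 1.77 at P1 and by 0.33 at E14.5, 0.18 at P7 and 0.09 at P90 (contrast 1.58, adjusted p = 1.27e-05).

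Cyp2b9 and Gzma were low in 129S2 at P1 and P7. Cyp2b9 differed by -4.31 at P1 and by -0.21 at E14.5, -6.53 at P7 and -0.04 at P90 (contrast -2.04, adjusted p = 5.65e-07). Gzma differed by -3.71 at P1 and by -0.23 at E14.5, -2.23 at P7 and 0.08 at P90 (contrast -2.91, adjusted p = 4.86e-08), and Gzmb by -1.76 and by -0.06 at E14.5, -1.62 at P7 and -0.16 at P90 (contrast -1.15, adjusted p = 2.99e-05). The B lineage genes Cd79a and Cd79b had called contrasts of -1.26, adjusted p = 0.000534 and of -1.05, adjusted p = 0.000256. By comparison Cd5l, called lower at all 4 liver stages, had a contrast that was not called (-0.60, adjusted p = 0.136). The contrast of P1 liver with P1 brain was called for 244 genes (1.97%), 200 of them P1 liver calls (55.7% of the 359), with Cyp2b9 at -4.26, adjusted p = 6.56e-10, Gzma at -3.63, adjusted p = 4.9e-08 and Rbp2 at 2.89, adjusted p = 5.7e-05. Both contrasts compare differences across separately normalized sets. Genes were chosen for testing by their P1 liver level alone. A gene near background in another set shows little difference there, and the part of such low signal in the contrasts was not tested.

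**Figure D5:**
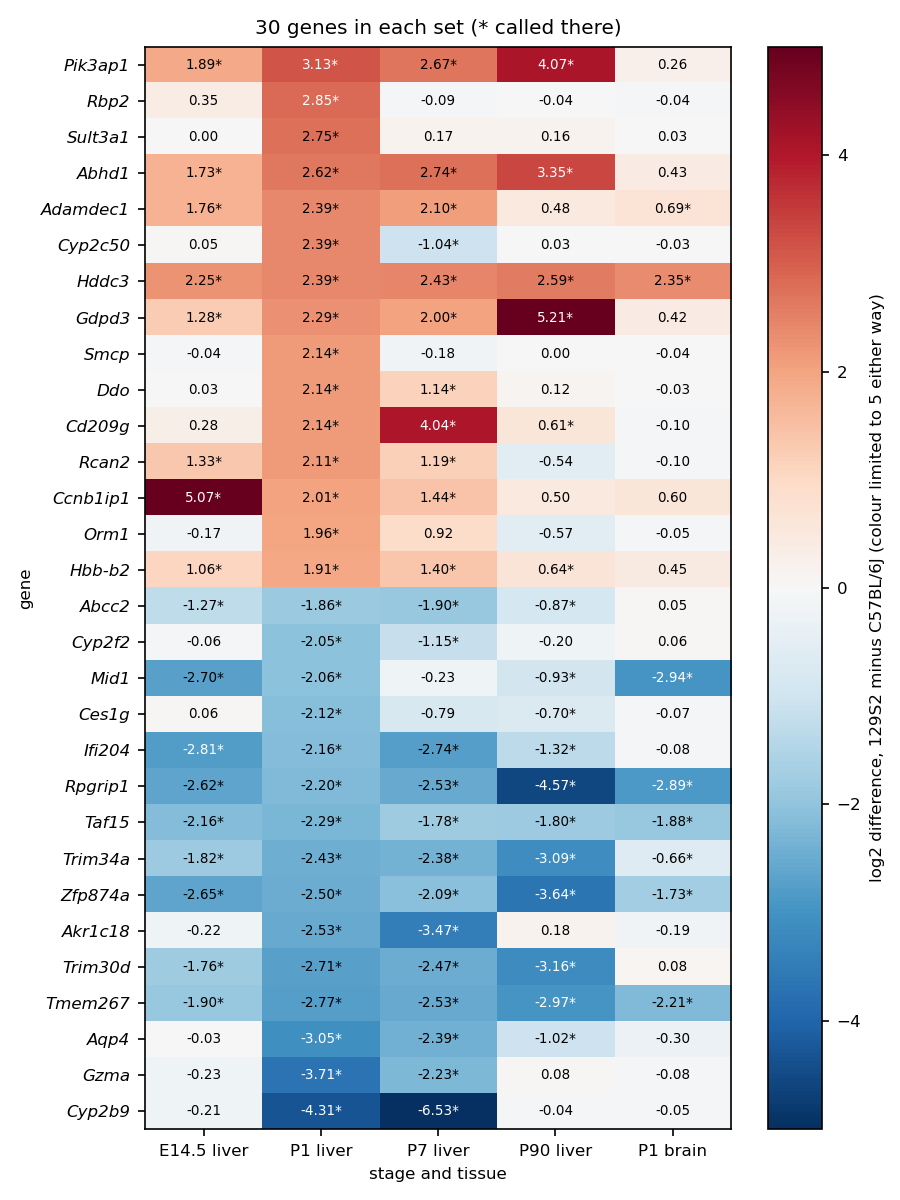
Difference between 129S2 and C57BL/6J (log2 units, written in each cell) of the 15 highest and 15 lowest named genes of P1 liver in E14.5, P1, P7 and P90 liver and in P1 brain, with an asterisk where the gene was called. Hddc3, Taf15, Trim34a, Zfp874a, Tmem267 and Rpgrip1 carry an asterisk in all 5 columns, and Rbp2, Sult3a1 and Smcp in the P1 liver column alone.

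DBA/2J livers of the same stage, 3 arrays in the same normalization set, stood near 129S2 for some genes and near C57BL/6J for others. Pik3ap1 averaged 10.83 ± 0.01 in 129S2 and 7.70 ± 0.26 in C57BL/6J, with DBA/2J at 10.86 ± 0.02 (SD, n = 3 each). Hddc3 averaged 9.03 ± 0.16 in 129S2 and 6.64 ± 0.21 in C57BL/6J, with DBA/2J at 9.07 ± 0.02. Alad averaged 12.60 ± 0.07 in 129S2 and 11.25 ± 0.13 in C57BL/6J, with DBA/2J at 12.55 ± 0.14. In these 3 genes the DBA/2J mean lay close to the 129S2 mean and apart from C57BL/6J. For Cyp2b9 the means were 5.59 ± 0.16 in 129S2 and 9.90 ± 0.13 in C57BL/6J, with DBA/2J at 10.40 ± 0.22. For Cyp2f2 they were 8.91 ± 0.29 in 129S2 and 10.95 ± 0.18 in C57BL/6J, with DBA/2J at 11.72 ± 0.29, and DBA/2J was the highest of the strains for both P450s. Gzma averaged 6.38 ± 0.14 in 129S2 and 10.09 ± 0.28 in C57BL/6J, with DBA/2J between them at 8.17 ± 0.31. Trim30d averaged 5.32 ± 0.12 in 129S2 and 8.03 ± 0.33 in C57BL/6J, with DBA/2J at 5.53 ± 0.20, and Tmem267 4.63 ± 0.12 in 129S2 and 7.41 ± 0.08 in C57BL/6J, with DBA/2J at 4.33 ± 0.16. Both DBA/2J means were below 6.62, like the 129S2 means.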

How the data were processed

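RNA of whole liver or brain was labelled with biotin after one cycle of cDNA synthesis and read on Affymetrix arrays, per the labels' protocols. The deposited values are log2 signals of RMA, per the submitters' processing notes, with the version not given in the sources used here. The authors' values for 45101 probe sets fall into 8 sets of 9 arrays, 1 per stage and tissue, taken here as normalized separately: pairs of arrays within a set held 1.55 to 4.35% exactly equal values, and pairs from different sets 0%. Of the probe sets, 34958 have 1 gene symbol in the platform annotation, 932 several and 9211 none; 0 symbols needed updating. A gene (18194 in all) was read by its single-symbol probe set with the highest mean over the 9 P1 liver arrays. It was tested if the highest strain mean exceeded the set median of 6.62. limma 3.58.1 in R 4.3.3 fitted group means over those 9 arrays with eBayes. A call needs a Benjamini-Hochberg adjusted p below 0.05 over all genes tested and a 1.5-fold difference. Contrasts with other stages used the 36 liver arrays and those with brain the 18 P1 arrays. Summed marker signal is log2 of the summed linear signals of a list's tested members. Tables and figures used Python 3.11.15, pandas 2.3.3 and matplotlib 3.10.9, and the fits were tested on simulated data. Arrays were grouped by the labelled strain, stage and tissue.

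The genes, lists and tests were chosen with earlier results of these data known. Named genes were the 15 highest and 15 lowest, up to 4 called members of each list by size (plus the 2 members with the highest level where a list had none called or was a marker list), members of runs of 3 neighbours, the 6 strongest contrasts of each kind, and members of the Ifi200, Trim and variant lists differing by 2-fold. Genes outside that rule are said to have been named after their values were seen, apart from those quoted as not called. Alternatives changed the arrays fitted, filter, probe set, normalization, variance model, array weights, replicate block, fold minimum and each array left out.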

Additional observations from a re-analysis of the deposited data

Results flagged for a closer look

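Differences were flagged where the contrast of the P1 liver difference with the other liver stages, or with P1 brain, was itself called. Of the 94 named called genes, 43 met the first and 65 the second condition. After that was seen, the values below were kept to the 43 genes named for the size of their difference, their place in a run, their contrast or their locus family, of which 17 met the first and 30 the second. Genes had been named partly for these contrasts, so the counts are no test. Over all genes 3.52% and 1.97% were called in the contrasts. Against P1 brain, the liver difference was larger in the positive direction by 2.89 for Rbp2, 2.87 for Pik3ap1, 2.72 for Sult3a1, 2.42 for Cyp2c50, 2.24 for Cd209g, 2.21 for Rcan2, 2.20 for Abhd1, 2.18 for Smcp, 2.17 for Ddo, 2.01 for Orm1, 1.87 for Gdpd3, 1.71 for Adamdec1, 1.43 for Ifi202b, 1.41 for Ccnb1ip1 and 1.33 for Gbp2b. It was larger in the negative direction, with contrasts of -4.26 for Cyp2b9, -3.63 for Gzma, -2.79 for Trim30d, -2.75 for Aqp4, -2.34 for Akr1c18, -2.10 for Cyp2f2, -2.09 for Ifi204, -2.05 for Ces1g, -1.92 for Abcc2, -1.76 for Trim34a, -1.62 for Klrd1, -1.55 for Ifi209, -1.35 for Cd5l, -1.05 for Cyp2b13 and -0.96 for Cyp2a12. The contrasts with the mean of the other liver stages were 2.77 for Rbp2, 2.71 for Cyp2c50, 2.64 for Sult3a1, 2.22 for Smcp, 2.10 for H2-Q2, 1.71 for Ddo, 1.45 for Rcan2, 1.04 for Rpgrip1, 0.95 for Adamdec1, -0.85 for Klrd1, -1.04 for Cyp2a12, -1.36 for Akr1c18, -1.57 for Cyp2f2, -1.64 for Ces1g, -1.90 for Aqp4, -2.04 for Cyp2b9 and -2.91 for Gzma. Each adjusted p of these contrasts was below 0.05. No level was required in brain or at the other stages, so low signal there can also give a called contrast, and its part was not tested. The contrast sets P1 against a mean of 3 stages that can differ among themselves. Cyp2b9 lay near 0 at E14.5 and P90 (-0.21 and -0.04) but at -6.53 at P7, lower than at P1, and the positive contrast of Rpgrip1 belongs to a gene lower at all 4 stages, most so at P90 (-4.57).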

How the results depend on the processing

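The count of 359 called genes was 569 with all 36 liver arrays in the fit (351 of the 359 among them), 155 at a 2-fold minimum, and 33 where a second probe set also had to be called. Leaving out 1 array gave 209 (without 129S2 replicate 3) to 375 (without C57BL/6J replicate 1). The replicate block gave 288, with 277 of the 359 kept. The same-numbered arrays of the strains deviated with correlations of 0.162, -0.123 and 0.0584. With 3 arrays a strain, these values cannot show whether the numbers pair the samples. The remaining settings for that count gave 246 (only the 6 arrays) to 529 (array weights). Called stage contrasts numbered 323 to 555 with 1 array left out and 424 with the replicate block, against 436, and brain contrasts 207 to 312 and 206, against 244. Chosen after seeing the data, the same omissions moved the P1 calls shared with E14.5 liver to 93 (without 129S2 replicate 3) to 138, against 143; with the replicate block they were 120, and 146 at P7, 122 at P90 and 45 in P1 brain. Of 94 named called genes, 68 had a value under all 17 settings tried for named genes, and 38 of these kept their call in each. The stricter filter and the mean of all probe sets left 71 and 88 of the 94 tested, and 35 lost their call without at least 1 array. The direction of 1 named gene turned: Xaf1, at -0.027 with the mean of all probe sets. The cause of these changes was not tested, except that the stricter fold and the second probe set leave fewer genes by construction. With 3 arrays a strain, an exact permutation test of 1 gene cannot give a two-sided p below 0.1, and signals near 6.62 give no exact fold.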

Other observations

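Hamp, the hormone hepcidin that blocks iron export, and its copy Hamp2 differed within 129S2 and were named after their values were seen. Hamp read 7.99 log2 units on the second 129S2 array and 12.72 or more on the others of that strain, against 13.43 to 13.96 in C57BL/6J livers, and Hamp2 read 9.58, 6.71 and 9.82 log2 units in 129S2 livers, against 11.43, 10.50 and 10.31 in C57BL/6J livers. The second 129S2 array was low for both, and neither was called (-2.42 ± 1.08, adjusted p = 0.309 for Hamp). The 2 genes are close copies, and how far their probes read each other's transcripts was not tested.

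The first C57BL/6J array had 101 genes over 1 log2 unit above the mean of the other arrays of its strain and 94 below it. Of these 195 genes, 6 (3.08%) were called between the strains, near the 2.9% of all genes. Tat, tyrosine aminotransferase, read 11.90, 10.73 and 10.97 log2 units in 129S2 livers, against 12.90, 10.11 and 10.64 in C57BL/6J livers, and Tdo2, tryptophan dioxygenase, 6.54, 9.12 and 7.49 log2 units in 129S2 livers, against 10.58, 8.13 and 6.53 in C57BL/6J livers. Both enzymes break down amino acids and were highest on that array, on which Idi1 and Sqle of cholesterol synthesis were lowest.

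The genes tested formed 12298 pairs of neighbours at any distance on the reference assembly. Of pairs within 1 Mb, whose total was not counted, 23 were called in the same direction and 6 in opposite directions. Examples of the same direction, chosen after their values were seen, are Fcgr4 (-1.16) and Fcgr3 (-0.82), receptors for immunoglobulin on macrophages, and Ces1e (-0.92) and Ces1g (-2.12), both lower in 129S2. Some pairs, such as Cyp2b13 and Cyp2b9, are close copies, and how far their probes read each other's transcripts was not tested.

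Symbols of clones and predicted genes made up 13 of the calls, 5 higher and 8 lower. The lowest of those was Gm4951 (-3.95 ± 0.19, adjusted p = 6.7e-06), a predicted gene on chromosome 18, named after its value was seen.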
